A study of Bos taurus with 8 samples.

Results

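Chromosome 11 carried 467 of the 10249 non-control probes of a bovine tiled array on which DNA methylation was measured in the arcuate nucleus of heifers. The probes were taken as all non-control probes that the files place on chr11, from position 3326570 to position 97363256 in the Btau_3.1 build, and neighbouring starts more than 20000 bp apart divided them into 6 loci, called A to F here. Locus A was chr11:3326570-3375391 with 56 probes, and locus B was chr11:13463985-13620420 with 235 probes. Locus C was chr11:13653845-13666939 with 19 probes, and locus D was chr11:13690777-13734890 with 56 probes. Locus E was chr11:76242875-76279154 with 70 probes, and locus F was chr11:97353575-97363256 with 31 probes. The widest gap kept inside a locus was 17362 bp in locus D, and the narrowest gap that separated loci was 23889 bp, between loci C and D. Loci B, C and D lay close to one another, with 33470 bp between B and C, so the 6 loci stood in 4 distant parts of the chromosome. What the probes overlap (gene, exon or promoter) was not analysed here, and items are named by position.

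Each of 8 female heifers contributed 1 array. The 4 high-gain heifers, numbered 1 to 4, were fed for a target body weight gain of 1 kg per day from 4.5 to 8.5 months of age, and the 4 low-gain heifers, numbered 5 to 8, for a target of 0.5 kg per day over the same ages. Arcuate tissue was taken at 8.5 months, and DNA captured with a methyl-CpG binding domain (the enriched channel, labelled with Alexa Fluor 647) was hybridised together with total DNA of the same heifer (the input channel, labelled with Alexa Fluor 555). Dyes were never swapped, and the 8 arrays shared 1 slide.

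In mammals DNA methylation lies mainly on cytosines followed by guanine, the CpG sites, and CpG-dense promoters are usually free of it. A methyl-CpG binding domain protein retains fragments that carry several methylated CpGs, so the capture signal follows both the methylation and the number of CpGs in a fragment. The arcuate nucleus, at the base of the hypothalamus, holds neurons that respond to energy status and neurons that take part in the control of gonadotropin release, and nutrition in calfhood affects the age at puberty in heifers.

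The value of a probe on an array was log2 of enriched over input signal minus the median of that quantity over all non-control probes of the array. A value of 0 is therefore the level of the array's median probe, not an absence of methylation, and a shift shared by all probes is removed. Values of a region (at least 3 probes with neighbouring starts at most 1000 bp apart) or of a locus were means over its probes on each array. The 467 probes formed 47 regions that held 435 of them, and 32 lay outside a region. All 467 probes entered the tests, with no filter on dim probes, and 466 had a value on all 8 arrays. The tissue is a mixture of cells, so fewer methylated cells and less methylation per cell cannot be told apart. Differences are high-gain minus low-gain on the log2 scale, and p-values were adjusted over all 10249 probes, 960 regions or 100 loci of the array, with 0.05 as the threshold.

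The arrays differed in spread. The interquartile range over the 467 probes was 0.68, 0.89, 1.14 and 1.58 in the high-gain heifers and 1.00, 1.77, 1.70 and 2.10 in the low-gain heifers. It was below that of the other chromosomes' probes on all 8 arrays, which is given as a description. Between 73.9% and 75.4% of the probes gave an enriched signal clear of the scanner software's background in the high-gain heifers, against 52.7% to 70.4% in the low-gain heifers, with heifer 8 the lowest. In the input channel the share was 80.7% to 93.8% over all arrays. Across the 467 probes the high-gain arrays correlated with one another at Pearson's r of 0.016 to 0.16. The values of low-gain heifers 6, 7 and 8 correlated at 0.52 to 0.63, while the correlations of heifer 5 with those 3 were 0.092 to 0.13. In locus A the 3 pairs among heifers 6 to 8 reached 0.70 to 0.87, against 0.025 to 0.11 between them and heifer 5. The separation was smaller in other loci: 0.31 to 0.52 against 0.15 to 0.20 in locus E, and 0.25 to 0.83 against -0.27 to 0.24 in locus C. High-gain heifer 3 correlated with the other high-gain heifers at 0.016 to 0.14, against 0.34, 0.30 and 0.34 with low-gain heifers 6, 7 and 8. Low-gain heifer 5 correlated with the 4 high-gain heifers at 0.12 to 0.17. The high-gain heifers formed no set of their own by this measure: heifer 1 correlated with heifer 5 at 0.17, against 0.016 to 0.16 within its group. Over all 10249 probes heifers 6 to 8 correlated at 0.57 to 0.67, and heifer 5 with them at 0.091 to 0.14. Heifer 3 correlated with heifers 6 to 8 at 0.28 to 0.31 there, so the pattern is not particular to chromosome 11. Results are given with and without heifers 3 and 5 where the call depends on them. Neighbouring probes at most 200 bp apart (66 pairs, across probes of 1 array) correlated at -0.042 to 0.36.

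The enrichment profile, the mean of the 2 group means set against 0, showed 2 of the 6 loci below the array median and none above it. Locus D stood at -0.22 and locus F at -0.27, while the other four lay between -0.11 (locus C) and 0.085 (locus A). Over the whole array 33% of the 100 loci passed the threshold below 0 and 7% above 0, so 2 of 6 below 0 is the share of the array as a whole. The probe values of the array are skewed to low values (mean -0.11, median -0.011), and a mean over probes lies below 0 more often than above it. Of the 2 loci called, 0 passed after leaving out high-gain heifer 3 and 1 after leaving out low-gain heifer 6, 7 or 8, and neither passed within slide row 1 or row 2. With loess the count was again 2 but locus A passed above 0 in place of locus D below it.

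Locus D read -0.015, -0.22, -0.39 and 0.0084 in the high-gain heifers, against -0.10, -0.60, -0.25 and -0.17 in the low-gain heifers. The value was below 0 on 7 of 8 arrays, with high-gain heifer 4 just above it and low-gain heifer 6 the lowest. Its profile was -0.22 (SE 0.072, adjusted p = 0.0311 by limma). The call was lost without high-gain heifer 3 (adjusted p = 0.088) and without low-gain heifers 6, 7 or 8 (adjusted p = 0.12, 0.0687 and 0.0585 by limma). With loess the profile was -0.17 (adjusted p = 0.0633). It was -0.055 with the median of the probes (adjusted p = 0.576), -0.079 without the brightest 10% of input probes (adjusted p = 0.378) and -0.13 with probes well above background in both channels (adjusted p = 0.306 by limma). Of its 56 probes, 8 (14.3%) had a profile of -1 or less, a level held by 11.3% of all probes.

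Locus F read -0.38, 0.021, -0.25 and 0.15 in the high-gain heifers, against -0.43, -0.57, -0.30 and -0.45 in the low-gain heifers. It was below 0 on 6 of 8 arrays, the exceptions being high-gain heifers 2 and 4. Its profile was -0.27 (SE 0.069, adjusted p = 0.0121 by limma), and 6 of its 31 probes (19.4%) lay at -1 or less. Without high-gain heifer 3 the call was lost (adjusted p = 0.0569 by limma). With probes well above background in both channels its profile was -0.089 and the call was lost (adjusted p = 0.553 by limma). The locus is at the same time 1 region of 31 probes, and in the fit over regions the same values gave an adjusted p of 0.1, so the call holds among loci and not among regions.

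Locus A had the highest profile of the chromosome, 0.085 (SE 0.063, adjusted p = 0.299 by limma), which is rank 21 among the 100 loci from the top and did not pass. With loess it was 0.17 and passed (adjusted p = 0.0483 by limma). Locus A read -0.032, 0.098, 0.038 and 0.33 in the high-gain heifers, against -0.12, 0.030, 0.21 and 0.13 in the low-gain heifers. The groups overlapped, and 6 of 8 arrays were above 0. In locus A 5 of 56 probes had a profile of -1 or less and 1 had a profile of 1 or more. Locus B, with 235 probes the widest, stood at 0.023, locus E at 0.028 and locus C at -0.11, and none of them passed (adjusted p = 0.767, 0.761 and 0.3 by limma). Over the whole chromosome 38 of 467 probes (8.14%) stood at -1 or less, against 11.3% of all probes, and 15 (3.21%) stood at 1 or more, against 2.7%. Probe by probe, 8 passed the profile test above 0 (1.71%, against 1.31% of all probes) and 13 below 0 (2.78%, against 4.23%).

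**Figure D1:**
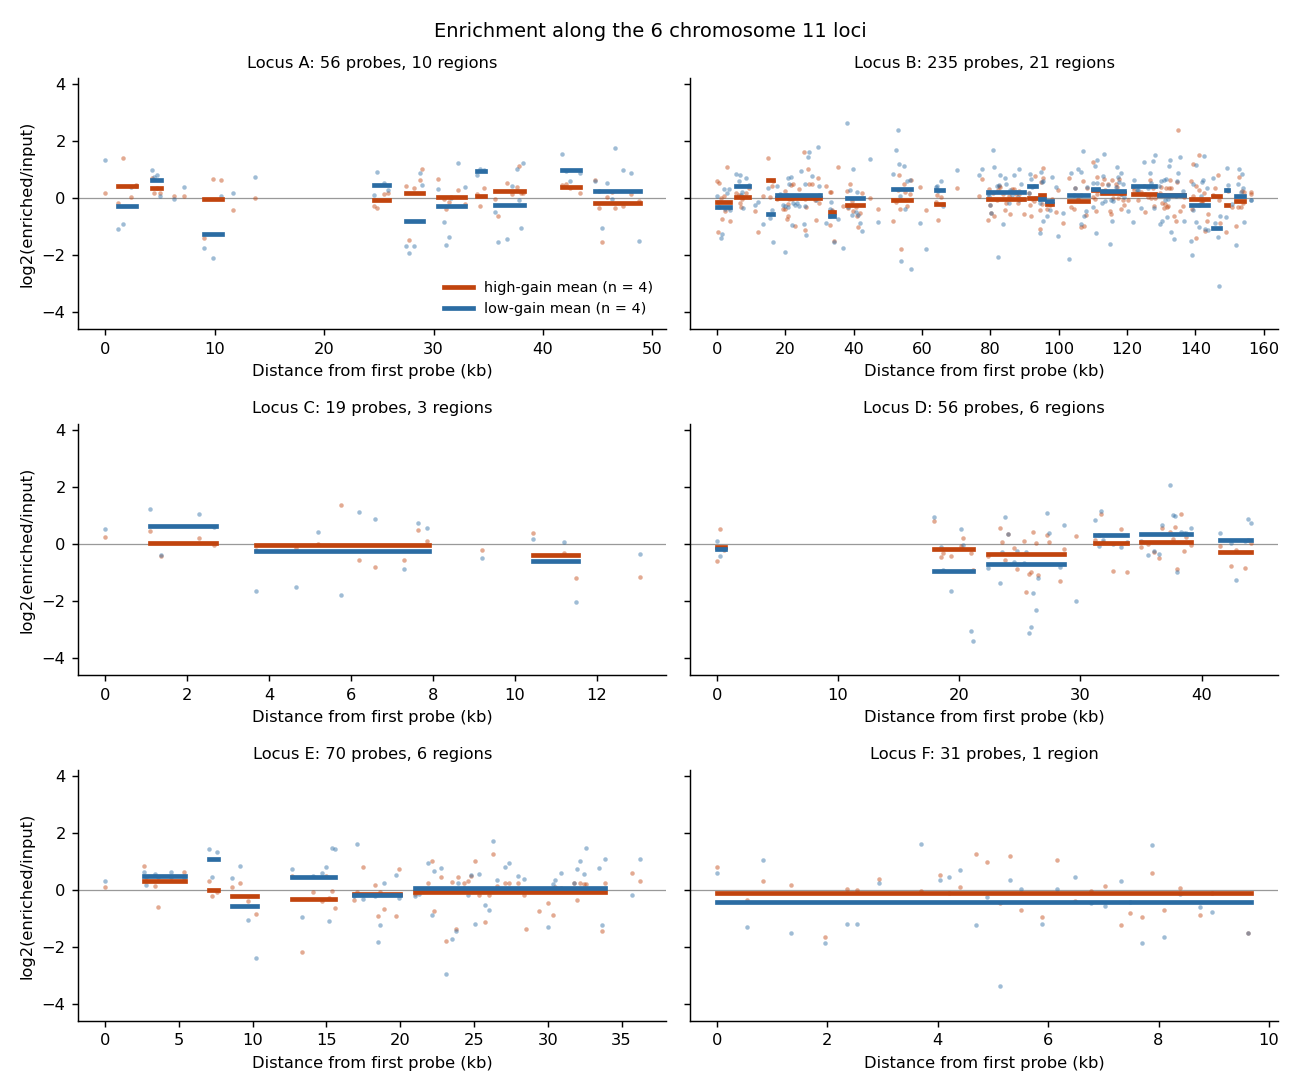
Enrichment along the 6 loci, with the distance from the first probe of the locus in kb on the x axis and log2 of enriched over input relative to the array median on the y axis. Dots are probes and bars are regions of at least 3 probes, each as the mean of the 4 high-gain or the 4 low-gain arrays. The bars stay within 1.3 of 0 in every locus, while single probes reach beyond 2 in both directions.

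Among the 47 regions 4 passed the profile test above 0 (8.51%, against 3.33% of all regions) and 2 below 0 (4.26%, against 9.58%). The 4 high regions lay in loci A and E, 2 in each. The 2 low regions lay in loci A and D, and none of the 21 regions of locus B passed. The balance of directions turned with the processing: 3 passed above and 10 below 0 with normexp background correction, 10 and 2 with loess, 2 and 4 with quantile scaling, 1 and 2 with scaling between arrays and 6 and 7 with array weights. No region of the chromosome reached 1 or -1, and on the array 1.04% of regions reached -1 and 0% reached 1.

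The region chr11:3368339-3369975 in locus A (4 probes) was the highest of the chromosome and rank 4 of 960 on the array. It read 0.29, 0.39, 0.37 and 0.44 in the high-gain heifers, against 0.12, 1.08, 1.50 and 1.30 in the low-gain heifers. All 8 arrays were above 0. The high-gain heifers lay close together, heifer 5 was the lowest of all 8, and heifers 6 to 8 were above every other array. The profile was 0.69 (SE 0.15, adjusted p = 0.0135 by limma). All 4 probes had a profile above 0, from 0.48 to 1.00, and the enriched signal of 3 of them was well above background on all 4 high-gain arrays. The call was lost within slide row 1 (profile 0.47, adjusted p = 0.274 by limma) and with normexp background correction (0.24, adjusted p = 0.0726), and with the median of the probes in place of their mean (0.68, adjusted p = 0.0503).

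A second high region of locus A, chr11:3330834-3331660 (4 probes), read 0.49, -0.036, 0.30 and 0.68 in the high-gain heifers, against 0.23, 0.26, 0.90 and 1.22 in the low-gain heifers, above 0 on 7 of 8 arrays with high-gain heifer 2 the exception. Its profile was 0.51 (SE 0.14, adjusted p = 0.0377 by limma). In locus E the region chr11:76245492-76248286 (6 probes) read 0.34, 0.16, 0.20 and 0.55 in the high-gain heifers, against 0.086, 0.40, 0.85 and 0.53 in the low-gain heifers. It was above 0 on all 8 arrays, and the groups overlapped. Its profile was 0.39 (SE 0.12, adjusted p = 0.0474 by limma). The neighbouring region chr11:76249924-76250497 (3 probes), 1638 bp farther along, had a profile of 0.54 (SE 0.16, adjusted p = 0.0458 by limma) and is described with the group differences. Its mean was 0.00076 in the high-gain heifers and 1.08 in the low-gain heifers, so the high profile lay in the low-gain arrays. A further region, chr11:3360545-3361265 in locus A (3 probes), had a profile of 0.51 and just missed the threshold (adjusted p = 0.0596 by limma). There too the high-gain mean was near 0 (0.075, against 0.93 in the low-gain heifers). The calls were sensitive to single heifers: leaving out 1 heifer ended the call of chr11:3330834-3331660 in 6 of 8 cases, that of chr11:76249924-76250497 in 6 and that of chr11:76245492-76248286 in 7, with adjusted p-values of 0.0522 to 0.132. The regions at 3330834 and 76249924 each kept the call when high-gain heifer 2 was left out and when low-gain heifer 5 was, and the region at 76245492 when low-gain heifer 5 was. The count of 6 regions became 2 after leaving out high-gain heifer 1 or 3, 4 after leaving out high-gain heifer 4, and 1, 3 and 2 after leaving out low-gain heifers 6, 7 and 8 in turn. Over the array the count of 124 of 960 regions became 77, 50, 70, 41, 63 and 40 in the same order.

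Among the low regions chr11:13713150-13719469 in locus D (18 probes) read -0.25, -0.53, -0.28 and -0.37 in the high-gain heifers, against -0.28, -1.02, -0.75 and -0.84 in the low-gain heifers. All 8 arrays were below 0, and low-gain heifer 5 lay among the high-gain values. The profile was -0.54 (SE 0.12, adjusted p = 0.0141 by limma). Without low-gain heifer 6 the adjusted p was 0.0507, and with the median of its probes in place of the mean the profile was -0.28 (adjusted p = 0.14 by limma). Its probes were mixed: 5 of the 18 had a profile of -1 or less, while 5 of the 18 stood above 0.

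Several of the low probes of that region stood side by side. The probes at 13716562 and 13716729 had profiles of -2.10 and -1.96. The next pair, at 13716899 and 13717084, had profiles of -0.66 and -1.13. On these 4 consecutive probes the high-gain heifers read -4.14 to 1.20, against -1.04 to 0.96 in low-gain heifer 5 and -4.26 to -2.10 in low-gain heifers 6 to 8. High-gain heifers 1 and 2 stayed between -0.22 and 0.59.

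The other low region, chr11:3335602-3337219 in locus A (3 probes), had a profile of -0.64 (SE 0.19, adjusted p = 0.0474 by limma), below 0 on 6 of 8 arrays. The group means were -0.022 in the high-gain heifers and -1.26 in the low-gain heifers, so the low profile lay mainly in the low-gain arrays. Of its 3 probes, 1 had a profile of -1 or less and 1 stood above 0. Its group difference is described below. The call was kept without high-gain heifer 2 and lost without any other single heifer, with adjusted p-values of 0.0576 to 0.12. Of the further 3 of the 5 lowest regions, chr11:13708732-13711954 in locus D stood at -0.58 and the 2 regions of locus B, chr11:13497008-13498312 and chr11:13609167-13611164, at -0.56 and -0.49. None of the 3 passed (adjusted p = 0.0843, 0.0751 and 0.0728 by limma). Levels between probes also carry the brightness of the probe: across the 467 probes the profile had a Spearman correlation of -0.16 with the input level, against -0.34 across the 9782 other probes, and its part in the profiles was not tested.

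Between the 2 feeding groups no locus of chromosome 11 passed the threshold (0 of 6 by limma, against 0% of the 100 loci of the array), and in none did the groups separate without overlap. The difference was 0.32 in locus F and -0.21 in locus E, while loci A, B, C and D differed by 0.13 or less in either direction. At an unadjusted p under 0.05 locus F was higher (1 of 6, against 4% of all loci) and no locus was lower (against 11%). Whatever their p, 3 of the 6 loci had a difference above 0, against 46% of all loci.

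Locus F averaged -0.11 ± 0.24 in the high-gain heifers and -0.44 ± 0.11 in the low-gain heifers (SD, n = 4 each). The low-gain arrays lay between -0.57 and -0.30. High-gain heifers 2, 3 and 4 were above all of them, and high-gain heifer 1 lay inside their range. The difference was 0.32 (SE 0.14, unadjusted p = 0.0358, adjusted p = 0.256 by limma), with a 95% confidence interval of 0.025 to 0.62. Across its 31 probes 64.5% of differences were above 0, against 44.7% of all probes, and the median difference was 0.23. As a region of the same 31 probes its difference had an SE of 0.22 and an unadjusted p of 0.166.

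The channels of locus F moved unequally. Centred on the array median, the enriched channel alone differed by 0.040 (SE 0.18) and the input channel alone by -0.28 (SE 0.11). The input level of the locus was 0.0041, -0.23, -0.19 and 0.28 in the high-gain heifers and 0.31, 0.29, 0.16 and 0.20 in the low-gain heifers. High-gain heifers 1 to 3 had the 3 lowest input levels, heifer 4 lay among the low-gain values, and the enriched signal differed by less than its SE. The part of the input signal in the difference was not tested. Within slide row 1 (heifers 1, 2, 5 and 6) the difference was 0.32 and within row 2 (heifers 3, 4, 7 and 8) 0.32. It was 0.15 after the arrays were scaled to a common spread.

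Locus E read 0.011, -0.093, 0.061 and -0.29 in the high-gain heifers, against -0.14, 0.17, 0.30 and 0.21 in the low-gain heifers. Low-gain heifers 6 to 8 were above all high-gain heifers, and low-gain heifer 5 was below 3 of them. The difference was -0.21 (SE 0.13, unadjusted p = 0.134, adjusted p = 0.433 by limma), with a 95% confidence interval of -0.50 to 0.075. Without heifer 5 it was -0.30. Of its 70 probes 34.3% had a difference above 0.

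Locus A differed by 0.046 (SE 0.13), with a 95% confidence interval of -0.23 to 0.32. Locus D, whose arrays are given above, differed by 0.13 (SE 0.14), with an interval of -0.19 to 0.44. In both the mean and the median over probes had opposite signs: the median probe difference was -0.28 in locus A and -0.13 in locus D. Locus B read -0.0094, -0.027, -0.047 and 0.064 in the high-gain heifers, against -0.065, 0.086, 0.23 and -0.051 in the low-gain heifers. Low-gain heifer 7 was the highest array, and the other three low-gain heifers lay at or near the high-gain range. Its difference was -0.055 (SE 0.12), with an interval of -0.30 to 0.19. Locus C read 0.057, -0.097, -0.17 and -0.30 in the high-gain heifers, against -0.19, -0.44, 0.34 and -0.061 in the low-gain heifers, the low-gain heifers holding both the lowest and the highest value, and its difference was -0.038 (SE 0.16), with an interval of -0.38 to 0.31. Over all 467 probes 40.7% of the differences were above 0 (44.7% of all probes), with a mean of -0.019 and a median of -0.23, against 0.028 and -0.13 over all probes.

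**Figure D2:**
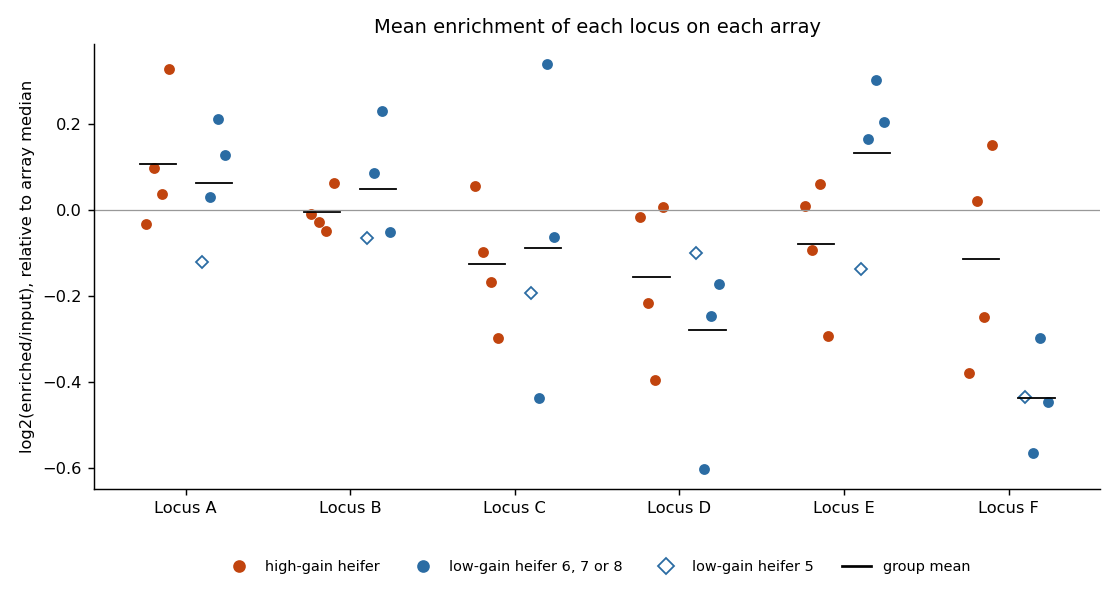
Mean log2 of enriched over input of each locus, relative to the array median, on each of the 8 arrays, with high-gain heifers on the left of each locus and low-gain heifers on the right. Points are heifers, the open diamond is low-gain heifer 5 and the black line is the group mean. The groups overlap in all 6 loci, and locus F has its 4 low-gain arrays between -0.57 and -0.30.

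At the level of regions 0 of 47 passed the adjusted threshold by limma, against 0.104% of the 960 regions of the array. At an unadjusted p under 0.05, 4 regions were higher in the high-gain group (8.51%, against 6.25% of all regions) and 3 were lower (6.38%, against 8.23%). The groups did not overlap in 2 regions that were higher (4.26%, against 2.6%) and in 2 that were lower (4.26%, against 3.65%). These shares are close to those of the array. At the same unadjusted threshold the count was 12 higher and 0 lower with normexp background correction, 7 and 3 with probes well above background in the input channel, 3 and 4 with loess and 8 and 11 with array weights. Without low-gain heifer 5 it was 7 and 6, without high-gain heifer 3 it was 6 and 3, without high-gain heifer 2 it was 5 and 1 and without low-gain heifer 8 it was 4 and 1. Whatever their p, 19 of the 47 regions (40.4%, against 47.9%) had a difference above 0. Locus A held 2 of the higher and 2 of the lower regions, locus B 2 higher ones and locus E 1 lower one, and loci C, D and F held none.

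The higher region with the smallest p was chr11:3354029-3355566 in locus A (5 probes), which read -0.0035, 0.51, -0.0070 and 0.28 in the high-gain heifers, against -1.20, -1.13, -0.19 and -0.65 in the low-gain heifers. All high-gain arrays were above all low-gain arrays. The difference was 0.99 (SE 0.27, unadjusted p = 0.00311, adjusted p = 0.175 by limma), and it was 1.42 within slide row 1 and 0.56 within row 2. The probes at 3354029 and 3354773 differed by 2.13 and 2.03, and the last 2 probes of the region had an enriched signal well above background on no more than 1 array of a group. The enriched channel alone differed by 0.78 and the input channel alone by -0.21.

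In locus B the region chr11:13609167-13611164 (5 probes) read -0.30, -0.058, -0.27 and 0.90 in the high-gain heifers, against -0.77, -1.42, -0.35 and -1.67 in the low-gain heifers, again without overlap. The difference was 1.12 (SE 0.35, unadjusted p = 0.007, adjusted p = 0.226 by limma). It rested on the probes at 13610582 and 13610842, which differed by 2.20 and 3.03; with the median of the probes the region's difference was 0.75 and with loess normalisation 0.55. The first probe of the region, at 13609167, differed by -0.61, in the other direction.

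The remaining 2 higher regions had overlapping groups. The region chr11:3335602-3337219 (locus A, 3 probes) read 0.10, 1.07, -1.02 and -0.24 in the high-gain heifers, against -1.49, -0.64, -1.36 and -1.56 in the low-gain heifers, with high-gain heifer 3 inside the low-gain range and a difference of 1.24 (SE 0.39, unadjusted p = 0.00735, adjusted p = 0.226 by limma). The region chr11:13478958-13480536 (locus B, 4 probes) read -0.48, 0.86, 0.91 and 1.21 in the high-gain heifers, against 0.24, -0.67, -0.73 and -1.12 in the low-gain heifers, with high-gain heifer 1 and low-gain heifer 5 on the side of the other group. The difference there was 1.20 (SE 0.38, unadjusted p = 0.00817, adjusted p = 0.226 by limma), almost all of it in the enriched channel (1.24, against 0.048 in the input channel). Next by p was chr11:3327766-3329428 (locus A, 4 probes), which differed by 0.73 (SE 0.34) at an unadjusted p of 0.0517.

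Of the lower regions chr11:76249924-76250497 in locus E (3 probes) had the smallest p. It read 0.026, -0.36, 0.10 and 0.23 in the high-gain heifers, against 0.46, 2.04, 1.03 and 0.77 in the low-gain heifers. All low-gain arrays were above all high-gain arrays, and heifer 6 was far above the rest. The difference was -1.07 (SE 0.32, unadjusted p = 0.00539, adjusted p = 0.225 by limma) and -0.75 without low-gain heifer 6. Its 3 probes differed in the same direction, by -1.13, -0.69 and -1.41, but the first of them had an enriched signal well above background on none of the 8 arrays. Heifer 6 read 3.91 at the third probe, the largest value in the region.

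The region chr11:3360545-3361265 in locus A (3 probes) read -0.14, -0.33, 0.41 and 0.36 in the high-gain heifers, against 0.79, 0.59, 0.45 and 1.91 in the low-gain heifers. The groups did not overlap, although low-gain heifer 7 and high-gain heifer 3 lay close to each other. The difference was -0.86 (SE 0.33, unadjusted p = 0.0223, adjusted p = 0.265 by limma) and -0.53 without low-gain heifer 8. The enriched channel alone differed by -0.40 (SE 0.37) and the input channel alone by 0.47 (SE 0.22). Also in locus A, chr11:3351113-3352465 (4 probes) read -0.21, -0.21, 0.12 and -0.0027 in the high-gain heifers, against -0.062, 0.67, 0.51 and 0.69 in the low-gain heifers. There heifers 6 to 8 were above every high-gain heifer and heifer 5 lay inside the high-gain range, for a difference of -0.53 (SE 0.24, unadjusted p = 0.0472, adjusted p = 0.328 by limma). This region lies 1564 bp before the higher region at 3354029, so 2 neighbouring regions of locus A differed in opposite directions.

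The region with the highest profile, chr11:3368339-3369975, differed by -0.63 (SE 0.29, unadjusted p = 0.051, adjusted p = 0.334 by limma). Its 4 probes all had a difference below 0, from -1.07 to -0.27. Without low-gain heifer 5 its difference was -0.92 with an adjusted p of 0.0497, the only chromosome 11 region to pass in that setting (1 of 47, against 2.6% of all regions). Within slide row 1 the difference was -0.26 and within row 2 -0.999. The last of the 5 lower regions with the smallest p was chr11:76255516-76258489 in locus E (8 probes), which differed by -0.76 (SE 0.38) at an unadjusted p of 0.0643.

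**Figure D3:**
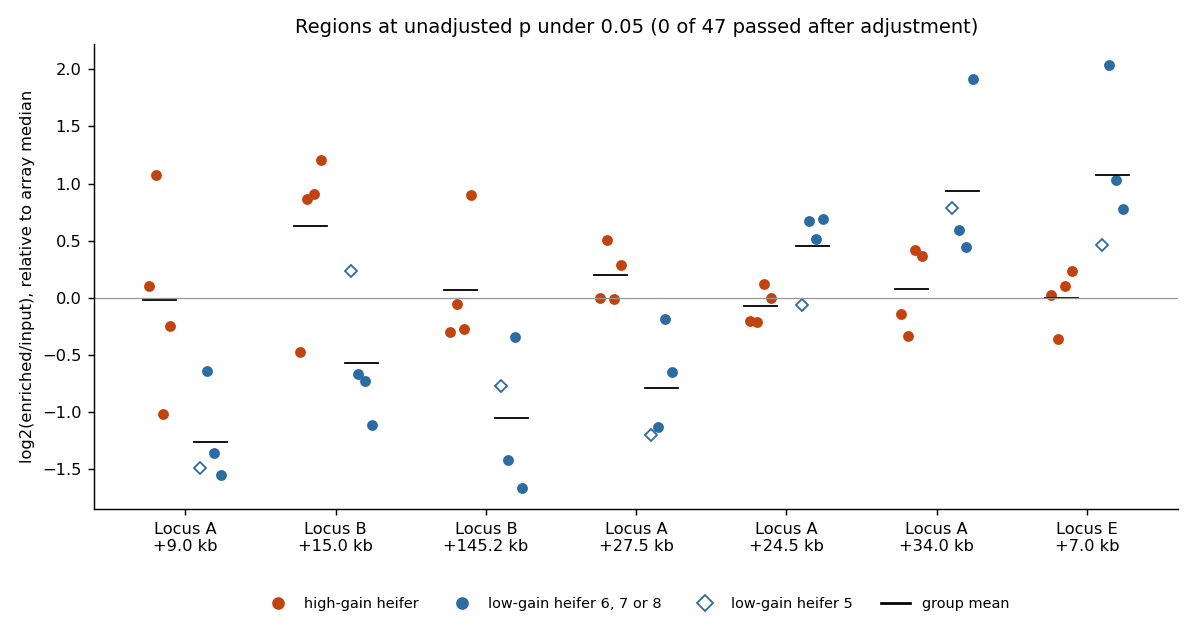
The 7 regions at an unadjusted p under 0.05, ordered by their difference and labelled by locus and distance from its first probe in kb, with log2 of enriched over input relative to the array median on the y axis. Points are heifers, high-gain on the left and low-gain on the right of each region, the open diamond is low-gain heifer 5 and black lines are group means. In 4 of the 7 regions (locus B at 145.2 kb, locus A at 27.5 kb and 34.0 kb, and locus E at 7.0 kb) the groups do not overlap.

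No single probe passed the adjusted threshold between the groups (0 of 467 by limma, against 0% of all 10249 probes). At an unadjusted p under 0.05, 31 probes were higher in the high-gain group (6.64%, against 7.21% of all probes) and 25 were lower (5.35%, against 5.23%). Of the 466 probes measured on every array, 10 were higher without overlap (2.15%, against 2.67%) and 15 were lower without overlap (3.22%, against 4.2%). The probes under 0.05 were spread over the loci: locus B, with 235 probes, held 15 of the 31 higher and 12 of the 25 lower ones, and locus A, with 56 probes, held 7 and 4. In locus E 2 were higher and 5 were lower. The split between the directions moved with the processing. It was 30 higher and 7 lower over the 340 probes well above background in the input channel, 17 and 6 over the 224 well above it in both channels, 43 and 17 with normexp background correction, 30 and 14 with the authors' values and 60 and 86 with array weights. Within slide row 1 it was 18 and 6, and within row 2 it was 33 and 34. Leaving out low-gain heifer 5 gave 49 higher and 64 lower probes and leaving out high-gain heifer 3 gave 47 and 19, while 16, 10 and 13 probes were lower after leaving out low-gain heifers 6, 7 and 8 in turn.

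The probe with the smallest p was chr11:13610842-13610893 in locus B, inside a higher region described above. It read -0.33, 0.021, -0.32 and 0.40 in the high-gain heifers, against -1.98, -3.98, -2.99 and -3.41 in the low-gain heifers. All high-gain arrays were above all low-gain arrays, with heifer 5 nearest to them. The difference was 3.03 (SE 0.50, unadjusted p = 0.000146, adjusted p = 0.167 by limma), made of 2.56 in the enriched and -0.47 in the input channel, and all 8 arrays were well above background there. The second, chr11:13520769-13520817 in locus B, read -0.15, 0.67, 0.38 and 1.70 in the high-gain heifers, against -0.75, -3.58, -2.59 and -3.09 in the low-gain heifers and differed by 3.15 (SE 0.67) with an adjusted p of 0.249. The third, chr11:3336438-3336498 in locus A, read -0.35, 1.40, -0.36 and 2.04 in the high-gain heifers, against -0.64, -2.89, -2.14 and -2.68 in the low-gain heifers and differed by 2.77 (SE 0.72) with an adjusted p of 0.272. In the second probe and the third alike, heifers 6 to 8 were far below the rest and heifer 5 lay nearer to the high-gain values.

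Among the lower probes chr11:76258429-76258489 in locus E read -0.17, -0.80, 0.017 and -1.61 in the high-gain heifers, against 0.96, 2.36, 1.61 and 0.74 in the low-gain heifers. The groups did not overlap, and the difference was -2.06 (SE 0.54) with an adjusted p of 0.272 by limma. The probe chr11:13516319-13516376 in locus B read 0.24, 0.74, -0.30 and -1.28 in the high-gain heifers, against 1.75, 1.28, 1.73 and 2.00 in the low-gain heifers, also without overlap, and differed by -1.84 (SE 0.50) with an adjusted p of 0.285. At both probes the enriched signal failed the scanner software's test against background on all 8 arrays, so their ratios rest on a dim numerator. Relative to the array median their input levels were -3.98 and -4.45, against enriched levels of -3.30 and -3.39. The enriched channel alone differed by -0.92 and -0.94, and the input channel alone by 1.14 and 0.91. The probe chr11:13517084-13517135, next to the second one, read -0.68, 0.0092, 1.27 and 0.58 in the high-gain heifers, against 1.03, 2.73, 2.86 and 2.96 in the low-gain heifers and was well above background on all arrays. High-gain heifer 3 was above low-gain heifer 5 there, and the difference was -2.10 (SE 0.60) with an adjusted p of 0.29.

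The chromosome held 1 run, defined as at least 3 probes in a row, starts no farther apart than 1000 bp, that each had an unadjusted p under 0.05 in the same direction. The run was chr11:13515582-13517135 in locus B, with 3 probes. It read -0.38, -0.048, 0.32 and -0.76 in the high-gain heifers, against 1.64, 1.14, 1.95 and 1.82 in the low-gain heifers as the mean of its probes. All 4 low-gain arrays were above all 4 high-gain arrays, heifer 5 included. The difference was -1.85, given with no test because the probes were chosen by that same comparison.

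The 3 probes of the run differed by -1.62, -1.84 and -2.10. The enriched signal of the first was well above background on 1 high-gain and 1 low-gain array, of the second on 0 of 8 and of the third on all 8. Their input channels differed by 1.17, 0.91 and -1.25, so the channels behind the 3 ratios did not move alike. The next probes at 13517381 and 13517592 differed by -0.39 and -0.46, the one after, at 13517783, by 0.43. At 13520769, in the same region, the difference was 3.15 in the other direction. The whole region of 11 probes differed by -0.38 (SE 0.26) with an unadjusted p of 0.163 by limma. Among other settings, no run was found when only probes well above background in the input channel were kept, with loess, with normexp correction, with the authors' values, with slide column as a block, within slide row 1 or without high-gain heifers 2 or 4 or low-gain heifer 7, while 3 runs were found with array weights and 2 without high-gain heifer 3.

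**Figure D4:**
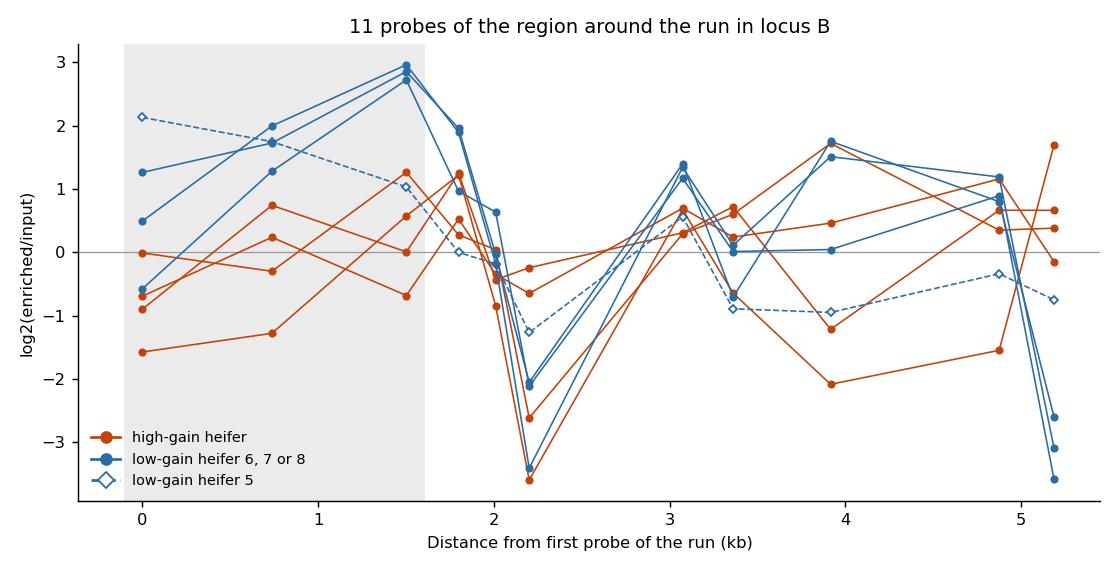
The 11 probes of the region that holds the run in locus B, with the distance from the first probe of the run in kb on the x axis and log2 of enriched over input relative to the array median on the y axis. Lines join the probes of 1 array, in red for high-gain and blue for low-gain heifers, dashed for low-gain heifer 5, and grey marks the 3 probes of the run. The low-gain lines lie mostly above the high-gain lines in the grey part, and at the last probe the high-gain heifers read -0.15 to 1.70, against -3.58 to -2.59 in heifers 6 to 8.

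Calls appeared when low-gain heifer 5 was left out. Between the 4 high-gain heifers and low-gain heifers 6 to 8, 15 of the 467 probes passed the adjusted threshold by limma (3.21%, against 3.01% of all probes), 12 of them higher and 3 lower in the high-gain group. They lay in all 6 loci: 8 in locus B, 2 each in loci A and D, and 1 each in loci C, E and F. The share is close to that of the array, and no other single heifer gave a call when left out.

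At the 12 higher probes the high-gain heifers read -0.36 to 3.12, against -3.98 to -1.09 in low-gain heifers 6 to 8. At the 3 lower probes the high-gain heifers read -0.68 to 1.27, against 2.04 to 4.10 in low-gain heifers 6 to 8. The values of heifer 5 were not in that fit, but the probes were chosen through that heifer, since no other omission gave calls. The place of heifer 5 at them is therefore a description and no separate support. Heifer 5 lay inside the high-gain range at 11 of the 15 probes. At 14 of the 15 it was nearer to the high-gain mean than to the mean of heifers 6 to 8. The exception was the probe at 13610842, where heifer 5 read -1.98.

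The widest of these differences was at chr11:13659610-13659657 in locus C. It read 0.55, 2.93, 0.69 and 1.28 in the high-gain heifers, against 0.80, -3.24, -1.91 and -2.78 in the low-gain heifers. Heifer 5 stood among the high-gain heifers there, and the difference without it was 4.00 (adjusted p = 0.0323 by limma), against 3.14 with it (adjusted p = 0.298). The largest in the lower direction was at chr11:13502125-13502179 in locus B, which read 0.039, -0.33, 0.39 and 0.86 in the high-gain heifers, against 0.72, 2.35, 3.42 and 4.10 in the low-gain heifers, a difference of -3.05 without heifer 5 and -2.41 with it. In locus D the probes at 13716899 and 13717084 are neighbours, and their differences without heifer 5 were 3.05 and 3.04. With all 4 low-gain heifers the 15 probes had adjusted p-values of 0.167 to 0.353. An alternative that keeps all 8 arrays and weights them by their fit called 19 probes (against 3.42% of all probes) and 11 of 47 regions (against 20% of all regions), 3 of the 11 higher and 8 lower.

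**Figure D5:**
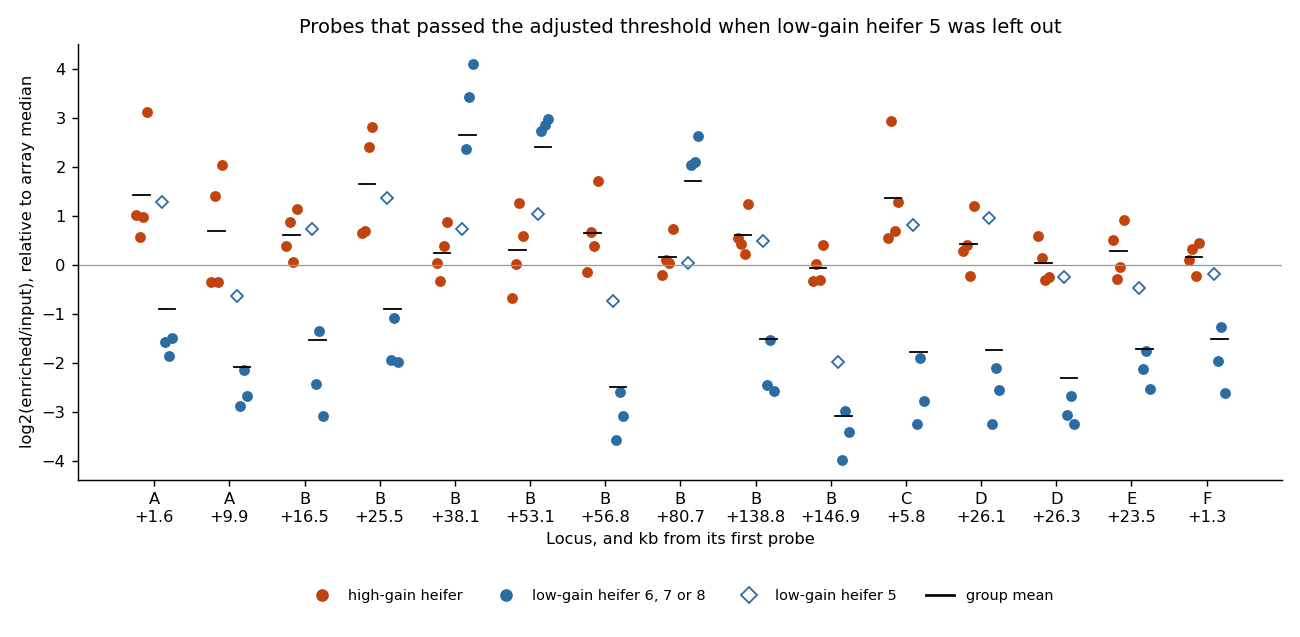
The 15 probes that passed the adjusted threshold when low-gain heifer 5 was left out, labelled by locus and distance from its first probe in kb, with log2 of enriched over input relative to the array median on the y axis. Points are heifers, high-gain on the left and low-gain on the right of each probe, and black lines are means of all 4 heifers of a group. The open diamonds of heifer 5 lie among or near the high-gain points at 14 of the 15 probes, while heifers 6 to 8 lie apart.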

How the data were processed

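DNA from the arcuate nucleus of 8 heifers was hybridised to 8 two-colour arrays. Spot intensity was extracted with Agilent Feature Extraction 10.7.1.1, per the file headers. The processed signals it deposited, background-subtracted, detrended and dye-normalised, were the starting point. The authors' table of log2 ratios equalled log2 of background-subtracted median signals within 0.0001 and served as an alternative. Probe positions refer to Btau_3.1, the build that the file headers name. Genes, exons and probe sequences were not analysed here.

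From the processed signals log2 of enriched over input was computed for 10249 non-control probes, 28 outlier-flagged spots were left out (1 on chromosome 11), and the median of each array was subtracted. No loess or quantile step was applied in the main setting. Probes, regions and loci were fitted over the whole array with limma 3.58.1 (lmFit and eBayes, R 4.3.3, two-sided, no covariates, Benjamini-Hochberg adjustment, threshold 0.05), and only chromosome 11 results are printed. The code was tested on simulated data. The number of arrays, 4 per group, limits the precision. Each array is a separate heifer, and the labels give no pairing.

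The text names every locus, every run, the 5 regions per direction with the smallest p, the 5 highest and the 5 lowest regions by profile, and the 3 probes per direction with the smallest p. The 15 probes called without heifer 5 and the members of named regions were chosen after their values were seen. The chromosome, the loci and the rules were chosen with earlier results of these data known. Alternatives covered background correction, normalisation, filters on dim and bright probes, single channels, array weights, slide row and column, region and locus definitions, and leaving out each heifer. Normexp correction used the median signals of the spots.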

Additional observations from a re-analysis of the deposited data

Results flagged for a closer look

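Over 28 named items the 56 groups of 4 heifers were checked for a single array far from the other three, and 1 was found. At the probe chr11:13517084-13517135 in locus B, the high-gain heifers read -0.68 to 1.27. Low-gain heifer 5 read 1.03, while low-gain heifers 6 to 8 read 2.73 to 2.96. The gap to the nearest of the others was 0.876 of the group's range, above Dixon's critical value of 0.829. Chance alone gives such a gap in about 5% of groups, and 1 of 56 is below that share. Heifer 5 lay inside the high-gain range at this probe.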

How the results depend on the processing

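Of the 3 counts between groups, all 0 in the main setting, most alternatives left 0. Array weights called 19 probes and 11 regions, against 351 of 10249 probes and 192 of 960 regions over the array. Normexp background correction called 1 probe and 1 locus (locus F), against 2 of 10249 probes and 3 of 100 loci. Leaving out 1 heifer gave 0 to 15 probes, 0 to 1 regions and 0 loci, every call coming without low-gain heifer 5. Over the array that omission called 308 of 10249 probes, 25 of 960 regions and 11 of 100 loci. The count of regions past the profile threshold was 6 of 47 in the main setting, against 124 of 960 over the array. With normexp it was 13 (286 of 960 over the array), with loess 12 (259) and with array weights 13 (319). With the enriched channel alone it was 32 (634). It was 3 with scaling between arrays (78), 2 without the brightest 10% of input probes (67) and 1 with a robust trended fit (31). Within slide row 1 it was 0 (24), with the median of the probes 0 (28), and without 1 heifer 1 to 7 (40 to 259). The count of loci past the profile threshold, 2 in the main setting, was 4 with normexp, 4 with the enriched channel alone, 1 without the brightest input probes and 1 with the median of the probes. It was 0 with probes well above background in both channels (32), 0 within slide row 1 (1) and 0 within slide row 2 (36). Without 1 heifer it was 0 to 2 (10 to 46). The profile of locus B turned to -0.093 with normexp. With the enriched channel alone, which holds no input and so includes probe brightness, the profile turned to 0.37 in locus C, 0.038 in D, -0.31 in E and 0.11 in F. It turned likewise to -0.10 at the region starting at 76249924, -0.45 at 3330834, -0.60 at 3360545, 0.29 at 3335602 and 1.57 at 13609167, and likewise to 0.44 at 13708732 and 0.063 at 13497008. Other causes were not tested. No paired analysis was possible because the high-gain heifers carry the numbers 1 to 4 and the low-gain heifers 5 to 8, so no number is shared.

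Signal over background limits the values: 67 of the 467 probes (14.3%, against 13.2% of all probes) had a dim enriched signal, never well above background, throughout the high-gain arrays, and 89 (19.1%, against 20.9%) throughout the low-gain arrays.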
